A study of Danio rerio with 10 samples.

Results

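G-protein coupled receptors were compared between zebrafish (Danio rerio) pituitary cells that had taken up a fluorescent dipeptide and cells of the same pituitaries that had not. The receptors were the 208 of 14781 genes in the authors' table whose deposited type annotation is G-protein coupled receptor, after 18 of 226 such genes were left out because their names mark Frizzled, leucine-rich-repeat or chemokine receptors. The choice used the annotation and gene names and no measured value.

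The dipeptide β-Ala-Lys coupled to the blue dye AMCA is a substrate of the oligopeptide transporter PEPT2, so uptake marks cells with that transporter, pituicytes among them. AMCA-positive and AMCA-negative cells came from adult males of the TL strain aged 12 months, and every fish had received 10 µL of 4.6 mM of the dipeptide 3 h before the cells were collected, so both groups carry the injection. Cells were dissociated from 5 pools of 7 pituitaries over 2 sorting experiments, dead cells were stained with propidium iodide, and each of the 5 AMCA-positive and 5 AMCA-negative libraries was made with 15 cycles of amplification. The sources used here do not state which libraries share a pool, so p-values measure the spread between libraries.

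A G-protein coupled receptor crosses the membrane 7 times and passes the binding of a ligand outside the cell to a G protein inside it. G proteins of the Gs and Gi families raise and lower cyclic AMP, those of the Gq family release calcium, and RGS proteins and arrestins end the signal. In the pituitary, hypothalamic dopamine, somatostatin and releasing hormones act on secretory cells through such receptors.

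Library totals ran between 5068078 and 5919478 counts in the AMCA-positive group and between 4250948 and 6068781 counts in the AMCA-negative group. Of the 14781 genes, 78.4 ± 1.27% had a count in an AMCA-positive library and 56.3 ± 5.12% in an AMCA-negative one (SD, n = 5 each). Astroglial genes, the list nearest to pituicytes, summed to 3631–6823 CPM (counts scaled to a common library size) in AMCA-positive libraries and 1847–4406 CPM in AMCA-negative ones, with 11 of 15 tested members higher and 1 lower. The 1 lower gene, the water channel aqp1a.1, averaged 4.79 CPM in AMCA-positive libraries, against 1935 CPM in AMCA-negative ones. It made up most of the AMCA-negative sum, followed by glulb, which averaged 555 CPM in AMCA-positive libraries, against 519 CPM in AMCA-negative ones. The called genes gfap and vim averaged 6.15 and 202 CPM in AMCA-positive libraries, against 0.0404 and 0.474 CPM in AMCA-negative ones. Red cell genes summed to 251–810 CPM in AMCA-positive libraries, against 148120–371250 CPM in AMCA-negative ones. Pituitary hormone genes summed to 8968–29858 CPM in AMCA-positive libraries, against 3116–52501 CPM in AMCA-negative ones, with 2 of 9 tested members higher and none lower. In such bulk libraries, fewer cells of a type and less RNA per cell cannot be told apart.

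Most of the receptors were measured thinly. A count was found in 87, 90, 106, 105 and 94 of the 208 receptors in the 5 AMCA-positive libraries, and in 83, 70, 44, 57 and 48 in the 5 AMCA-negative libraries. Every AMCA-positive library detected more receptors than any AMCA-negative one, as also held for genes at large. As shares, 46.3 ± 4.17% of the receptors were detected in AMCA-positive libraries, against 29.0 ± 7.74% in AMCA-negative ones (SD, n = 5 each). Over both groups, 28 receptors had no count, 36 had counts in only 1 library, 47 had counts in AMCA-positive libraries alone and 22 in AMCA-negative libraries alone. Such counts were not made over all genes, of which AMCA-positive libraries also detected more, so no receptor difference was read from them.

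**Figure D1:**
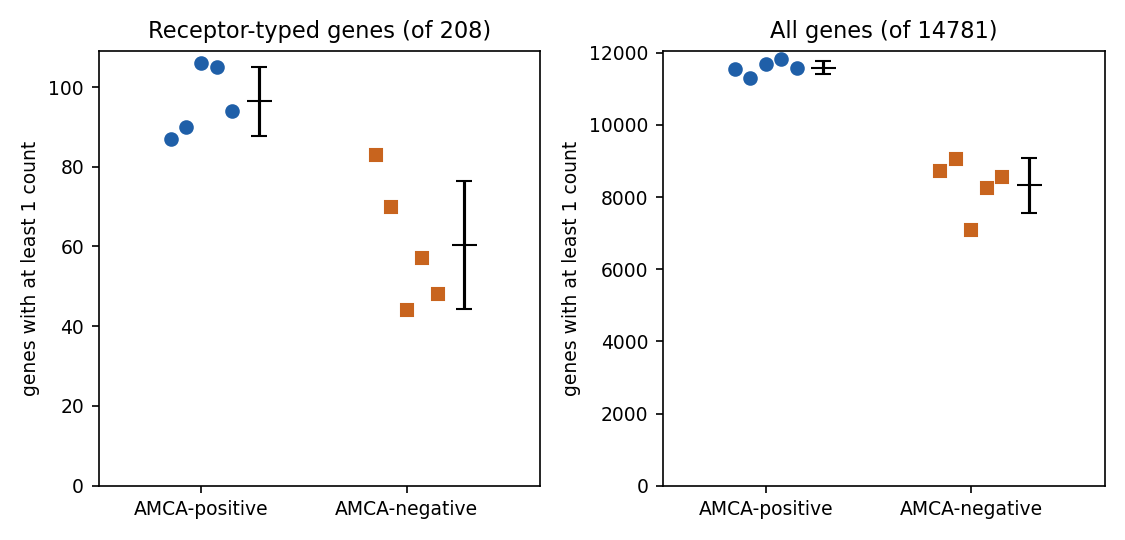
Number of receptors (left, of 208) and of all genes (right, of 14781) with at least 1 count in each library, for the AMCA-positive and AMCA-negative groups. Points are libraries and bars are the mean ± SD over 5 libraries; receptors average 96.4 ± 8.68 in AMCA-positive libraries, against 60.4 ± 16.1 in AMCA-negative ones, with no overlap.

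Of the 208 receptors, 51 passed the count filter and were tested, 129 had counts but did not pass, and 28 had none. The filter asked for a minimum count in at least 5 libraries, so receptors with many counts in few libraries also failed. The opsin rho, outside the naming rule, failed with 4709 counts. edgeR's quasi-likelihood test, adjusted by Benjamini-Hochberg over 9094 genes, called 15 receptors higher and 4 lower in AMCA-positive cells. Over all genes tested the same threshold of 0.05 called 13.1% higher and 7.06% lower. The remaining 32 tested receptors did not pass, and 26 of the 51 had an unadjusted p under 0.05, against 30.5% of all tested genes. Log2 fold changes here and below are AMCA-positive over AMCA-negative. With edgeR their median was 1.63 over the tested receptors and 0.51 over all genes tested. Setting genes with no count in a group to a floor of 3 counts touched 3 receptors and 187 genes. Such a change could hardly move a median, and both stayed the same. With no filter the medians were 1.19 over receptors and 0.83 over all genes. In each of the 15 and each of the 4, no AMCA-positive library overlapped an AMCA-negative one, and of all tested genes 12.8% were called higher with no overlap and 5.56% lower with no overlap. With no filter 20 of 180 receptors were higher (11.1%), beside 11.5% of all genes. Because the count filter kept genes high in either group, these counts describe the tested receptors and not the 208.

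The annotation includes products that are not receptors with 7 membrane passes. There are 9 of them, chosen by hand from gene names: agtrap, lrrc8db, npr3, sort1a, sort1b, tm2d1, tmem11, xpr1b and si:ch211-191d15.2. Without them 14 receptors were higher and 3 lower. Among the 9, sort1a was not called by edgeR, though its groups did not overlap, with AMCA-positive libraries above. Its log2 fold change was 3.86 ± 1.47 (SE, with an adjusted p of 0.0979 in edgeR). The other tools called sort1a higher (adjusted p of 0.00178 in DESeq2 and 0.00168 in limma-voom). For tmem11, outside the naming rule, the groups did not overlap either, with AMCA-positive libraries below. Its log2 fold change was -1.57 ± 0.60 (SE, with an adjusted p of 0.101 in edgeR). DESeq2 called tmem11 lower (adjusted p = 0.00671) and limma-voom did not call it (adjusted p = 0.0694).

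The called receptors were then counted by ligand. Among 35 receptors of lipids, related metabolites and chemerin, 18 were tested, and edgeR called 8 higher and 1 lower. DESeq2 called 10 of the 18 and limma-voom 12. Of 47 receptors of peptides, glycoprotein hormones and melatonin, 4 were tested, and edgeR called 1 higher and 1 lower. DESeq2 also called f2rl1.2, outside the naming rule, higher (adjusted p = 0.0363). The limma-voom fit added both f2rl1.2 (adjusted p = 0.0221) and sstr5. Of 26 receptors of amines, 4 were tested, and edgeR called 1 lower and none higher, while DESeq2 and limma-voom each also called drd4a and adrb2a higher. Both adhesion receptors, 2 of 17 orphan receptors (8 tested) and Smoothened were higher. In the orphan class DESeq2 also called tpra1 lower (adjusted p = 0.0353) and limma-voom gpr157 higher (adjusted p = 0.00348), both outside the naming rule. None passed among 10 receptors of the glutamate and GABA class (2 tested), 5 of nucleotides and related ligands (3 tested), 7 class B hormone receptors (1 tested) and 12 opsins (1 tested). At an unadjusted p under 0.05 edgeR marked 1 of these 7 tested receptors, gpr34b, as did DESeq2 at its adjusted p, and limma-voom marked none. Classes were set mostly from gene names, so gpr34b and p2ry10 stood with the nucleotide receptors. The mammalian counterpart of gpr34b binds a lipid, lysophosphatidylserine, and the lipid counts above leave out both. None of the 37 receptors of odorants and tastants passed the count filter, and 25 of them had a count in some library.

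**Figure D2:**
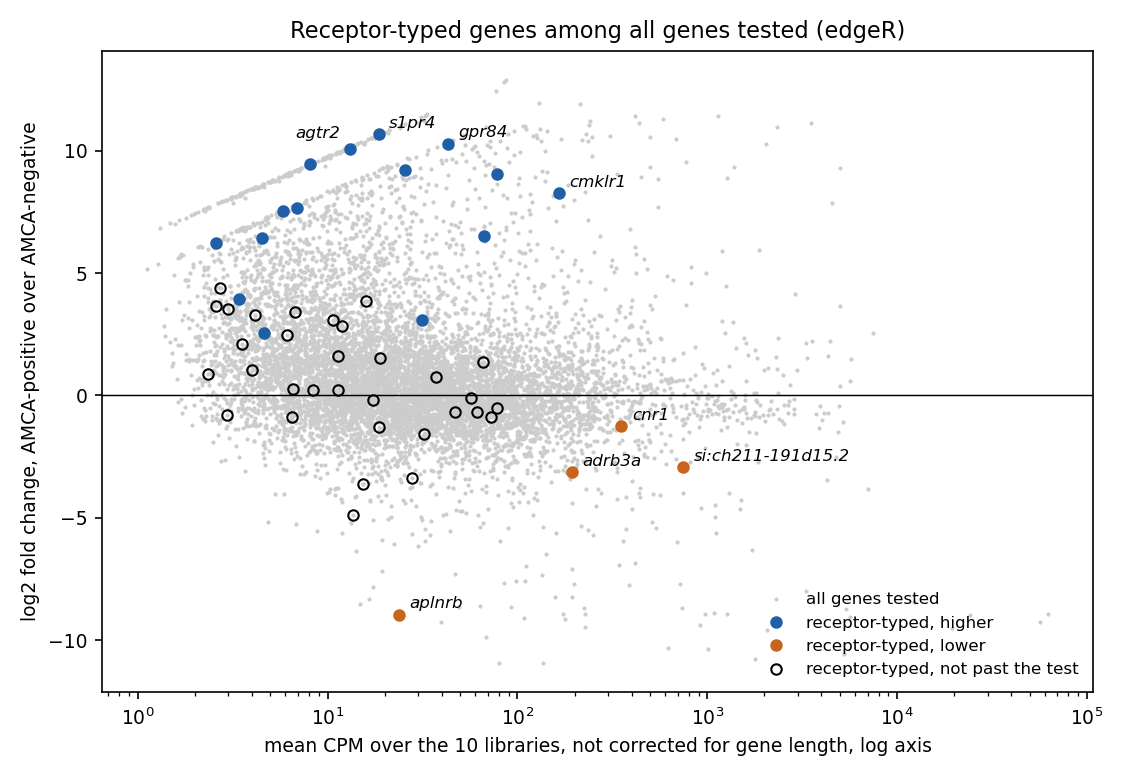
Log2 fold change of AMCA-positive over AMCA-negative cells against mean CPM for each of the 51 tested receptors, on a log horizontal axis; grey points are all 9094 genes tested, and levels are not corrected for gene length. Called receptors are coloured and the other 32 are open circles, with 15 called above 0 and 4 below; receptors with no count in 1 group lie on a line that the fit's prior count sets.

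Receptors of sphingosine-1-phosphate, a blood lipid that guides lymphocytes and stabilises vessels in mammals, were the family with the most members called. For s1pr1, which acts in endothelium and lymphocytes, the AMCA-positive libraries had 285, 161, 86.4, 107 and 139.7 CPM and the AMCA-negative libraries had 0.845, 0.220, 0.245, 0.189 and 0 CPM. The lowest AMCA-positive library was thus far above the highest AMCA-negative one. On the log2 scale the difference was 9.06 ± 0.70 (SE, with an adjusted p of 9.56e-06 in edgeR).

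The related s1pr4, found mainly in blood cells of mammals, had 21.0, 38.7, 67.2, 38.4 and 20.8 CPM in AMCA-positive libraries and 0 in all 5 AMCA-negative ones. Against a floor of 3 counts over the AMCA-negative group, s1pr4 was at least 280.4-fold higher (edgeR adjusted p = 0.00246). This bound, like the intervals given with ratios below, covers counting error only, since amplified reads are not independent molecules. For s1pr5a, whose mammalian counterpart is found in oligodendrocytes and natural killer cells, the AMCA-positive libraries had 205, 147, 62.6, 127 and 115 CPM and the AMCA-negative libraries had 0.282, 0, 0, 0 and 8.68 CPM. The AMCA-negative group was near 0 except in replicate 5. The log2 fold change came to 6.52 ± 1.61 (SE, with an adjusted p of 0.0146 in edgeR), and without that library 10.77 (edgeR adjusted p = 6.58e-05). With all 10 libraries DESeq2 gave s1pr5a no p-value and so did not call it, while limma-voom did (adjusted p = 0.000162). The 1 further tested member of the family, s1pr2, added after its values were seen, was not called, with 12.6 ± 6.27 CPM in AMCA-positive cells, against 9.98 ± 15.6 CPM in AMCA-negative ones (SD, n = 5 each; edgeR adjusted p = 0.947).

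Of the other named receptors with known roles in leukocytes of mammals, cmklr1, gpr84 and gpr183b were higher, and gpr183a, gpr34b and p2ry10 were not called. This is not a full count of such receptors. Outside the naming rule, edgeR did not call the lipid receptors ltb4r, cysltr1 and gpr132b (adjusted p of 0.257, 0.961 and 0.596). Of these, limma-voom called ltb4r and gpr132b higher (adjusted p of 0.0073 and 0.0305). The chemerin receptor cmklr1, which draws macrophages and dendritic cells toward the protein chemerin, had 303, 555, 245, 261 and 294 CPM in AMCA-positive libraries and 1.69, 0.879, 1.72, 0.189 and 0.807 CPM in AMCA-negative ones. The groups lay far apart, with replicate 2 the highest AMCA-positive library. The log2 difference was 8.28 ± 0.57 (SE, with an adjusted p of 5.54e-06 in edgeR).

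For gpr84, a receptor of medium-chain fatty acids on myeloid cells, the AMCA-positive libraries had 46.2, 173, 85.1, 76.7 and 47.4 CPM. These sum to 2716 counts, against 1 count in the AMCA-negative group. The ratio was 1896 with a 95% counting interval of 340.1 to 74930 (edgeR adjusted p = 9.28e-05). The oxysterol receptor gpr183b, whose mammalian counterpart positions B cells and dendritic cells, had 18.1, 19.7, 18.2, 4.61 and 7.95 CPM in AMCA-positive libraries and 1 count in all AMCA-negative ones. The ratio was 307, with a 95% counting interval of 54.9 to 12162 (edgeR adjusted p = 0.00259).

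Its paralog gpr183a was not called and varied widely within the AMCA-negative group. It had 27.9, 68.2, 77.1, 56.4 and 36.9 CPM in AMCA-positive libraries and 26.5, 47.5, 0.245, 79.4 and 151 CPM in AMCA-negative ones. In log2 units the groups differed by -0.11 ± 0.97 (SE, with an adjusted p of 0.957 in edgeR) and 0.073 with DESeq2 size factors, which moved the median of all genes by 0.15. Whether the paralogs differed from each other was not tested, and how reads matching both copies of a pair were counted was not stated in the labels or headers.

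Leukocyte genes differed between the groups in the same direction as cmklr1, gpr84 and gpr183b. Of 22 tested members of a leukocyte list, 16 were higher and none lower. The list summed to 17988–36840 CPM in AMCA-positive libraries, against 604–2438 CPM in AMCA-negative ones. Its largest member, cd74a, averaged 9313 CPM in AMCA-positive cells, against 762 CPM in AMCA-negative ones. Within the AMCA-positive group the sum was lowest in replicate 2, where cmklr1 and gpr84 were highest. The macrophage genes c1qa and csf1ra averaged 340 and 53.5 CPM in AMCA-positive cells, against 0.224 and 0.0967 CPM in AMCA-negative cells. Other members of the list were not near 0 in AMCA-negative cells. The macrophage gene mpeg1.1 averaged 221 CPM in AMCA-positive cells, against 67.6 CPM in AMCA-negative ones, and was not called (edgeR adjusted p = 0.140). For tyrobp the means were 2.96 and 5.06 CPM, also not called (edgeR adjusted p = 0.732). The part of leukocytes in the receptor differences was not tested.

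Of the prostaglandin, lysophosphatidic acid and cannabinoid receptors, ptger2a and lpar2a were higher and cnr1 was lower. The prostaglandin E2 receptor ptger2a, which raises cyclic AMP, had 11.4, 9.83, 7.11, 5.22 and 5.88 CPM in AMCA-positive libraries and 1.13, 2.86, 0.735, 1.13 and 1.01 CPM in AMCA-negative ones. The groups did not overlap, but the margin was narrow. The log2 fold change of ptger2a was 2.54 ± 0.76 (SE, with an adjusted p of 0.0373 in edgeR), and the call was lost in 8 of 10 fits that left out 1 library, all but those without AMCA-negative replicates 2 and 5 (edgeR adjusted p up to 0.104), and with no filter (edgeR adjusted p = 0.111).

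The lysophosphatidic acid receptor lpar2a had 2.29, 5.17, 7.85, 8.14 and 8.74 CPM in AMCA-positive libraries and 0.282, 0.220, 1.47, 0 and 0 CPM in AMCA-negative ones. All its levels were low, and the groups did not overlap. On the log2 scale the difference was 3.95 ± 1.21 (SE, with an adjusted p of 0.0411 in edgeR), and the call was lost in 7 of 10 fits that left out 1 library, namely each AMCA-positive one or AMCA-negative replicate 1 or 2 (edgeR adjusted p up to 0.0928), and with no filter (edgeR adjusted p = 0.0738). The tested relatives lpar1, lpar5a and lpar6a, added after their values were seen, were not called by edgeR, at log2 fold changes of 3.09, 1.35 and 1.55 (edgeR adjusted p of 0.258, 0.356 and 0.513). The other tools called lpar1 higher (adjusted p of 0.0318 in DESeq2 and 0.0153 in limma-voom).

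The cannabinoid receptor cnr1, which lowers cyclic AMP and is abundant in the brain, was the 1 lipid receptor that was lower. It had 210.5, 180.5, 193, 187 and 225 CPM in AMCA-positive libraries and 889, 589, 273, 299 and 492 CPM in AMCA-negative ones. The AMCA-positive libraries lay close together, and the AMCA-negative ones were spread out above them. The log2 fold change came to -1.25 ± 0.30 (SE, with an adjusted p of 0.0119 in edgeR).

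The prostaglandin E2 receptor ptger4b was not called, with 1.98, 2.00, 1.78, 4.00 and 0 CPM in AMCA-positive libraries and 70.4, 27.7, 0, 33.1 and 12.5 CPM in AMCA-negative ones. It was low in every AMCA-positive library, but AMCA-negative replicate 3 had no count. The log2 difference was -3.62 ± 1.54 (SE, with an adjusted p of 0.138 in edgeR). It passed without that replicate (-4.12, edgeR adjusted p = 0.0375) and in DESeq2 with all libraries (adjusted p = 0.0235). In the other 9 of 10 fits that left out 1 library ptger4b was not called (edgeR adjusted p up to 0.260), nor was it in limma-voom (adjusted p = 0.238).

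**Figure D3:**
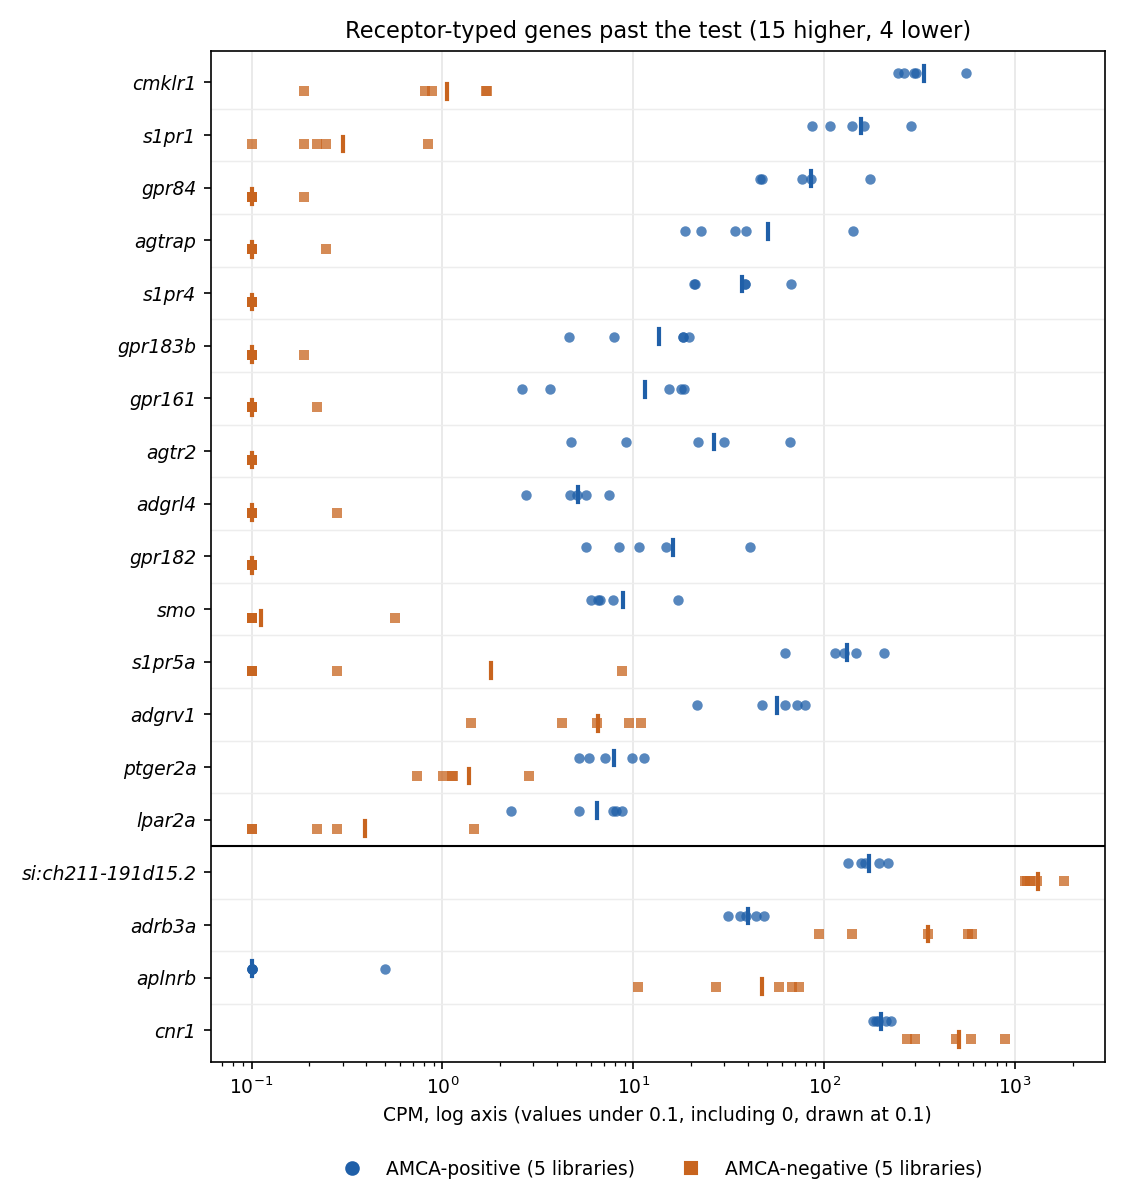
CPM in each library, on a log axis, for the 19 called receptors. AMCA-positive libraries are blue circles, AMCA-negative libraries are orange squares, bars are means and values below 0.1 CPM are drawn at 0.1; the groups do not overlap in any of the 19.

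Among peptide receptors, agtr2, the type 2 receptor of angiotensin II, had 4.73, 9.16, 29.8, 66.2 and 21.9 CPM in the AMCA-positive libraries, while the AMCA-negative libraries held no count. It was found in every AMCA-positive library, at levels that differed widely among them. It was at least 199-fold higher, against a floor of 3 counts over the AMCA-negative group (edgeR adjusted p = 0.00380), and at least 124-fold without AMCA-positive replicate 4. The product of agtrap binds the angiotensin type 1 receptor and is not itself a receptor. Its AMCA-positive libraries had 38.7, 141, 22.5, 34.1 and 18.8 CPM, and AMCA-negative libraries held 1 count in all. The ratio for agtrap was 1111, with a 95% counting interval of 199 to 43904 (edgeR adjusted p = 0.000811), and 641 without AMCA-positive replicate 2.

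The apelin receptors aplnra and aplnrb, which bind apelin and Toddler and act in vessel and heart development of zebrafish, had counts on opposite sides. For aplnrb the AMCA-positive libraries had 0, 0.500, 0, 0 and 0 CPM and the AMCA-negative libraries had 58.0, 27.0, 73.5, 10.6 and 68.0 CPM. Every AMCA-negative library held it, and only AMCA-positive replicate 2 did, with 3 counts. The AMCA-negative level was 488 times the AMCA-positive one, with a 95% counting interval of 166 to 2369.8 (edgeR adjusted p = 0.00210). Its paralog aplnra did not pass the count filter. The AMCA-positive libraries had 2.90, 1.00, 1.48, 5.53 and 3.66 CPM of aplnra, and the AMCA-negative ones 0.282, 0, 0, 0 and 0 CPM. The groups did not overlap in aplnra, at 94 counts in AMCA-positive libraries, against 1 in AMCA-negative ones. With no filter aplnra passed (edgeR adjusted p = 0.0302). The difference between the paralogs was not tested.

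**Figure D4:**
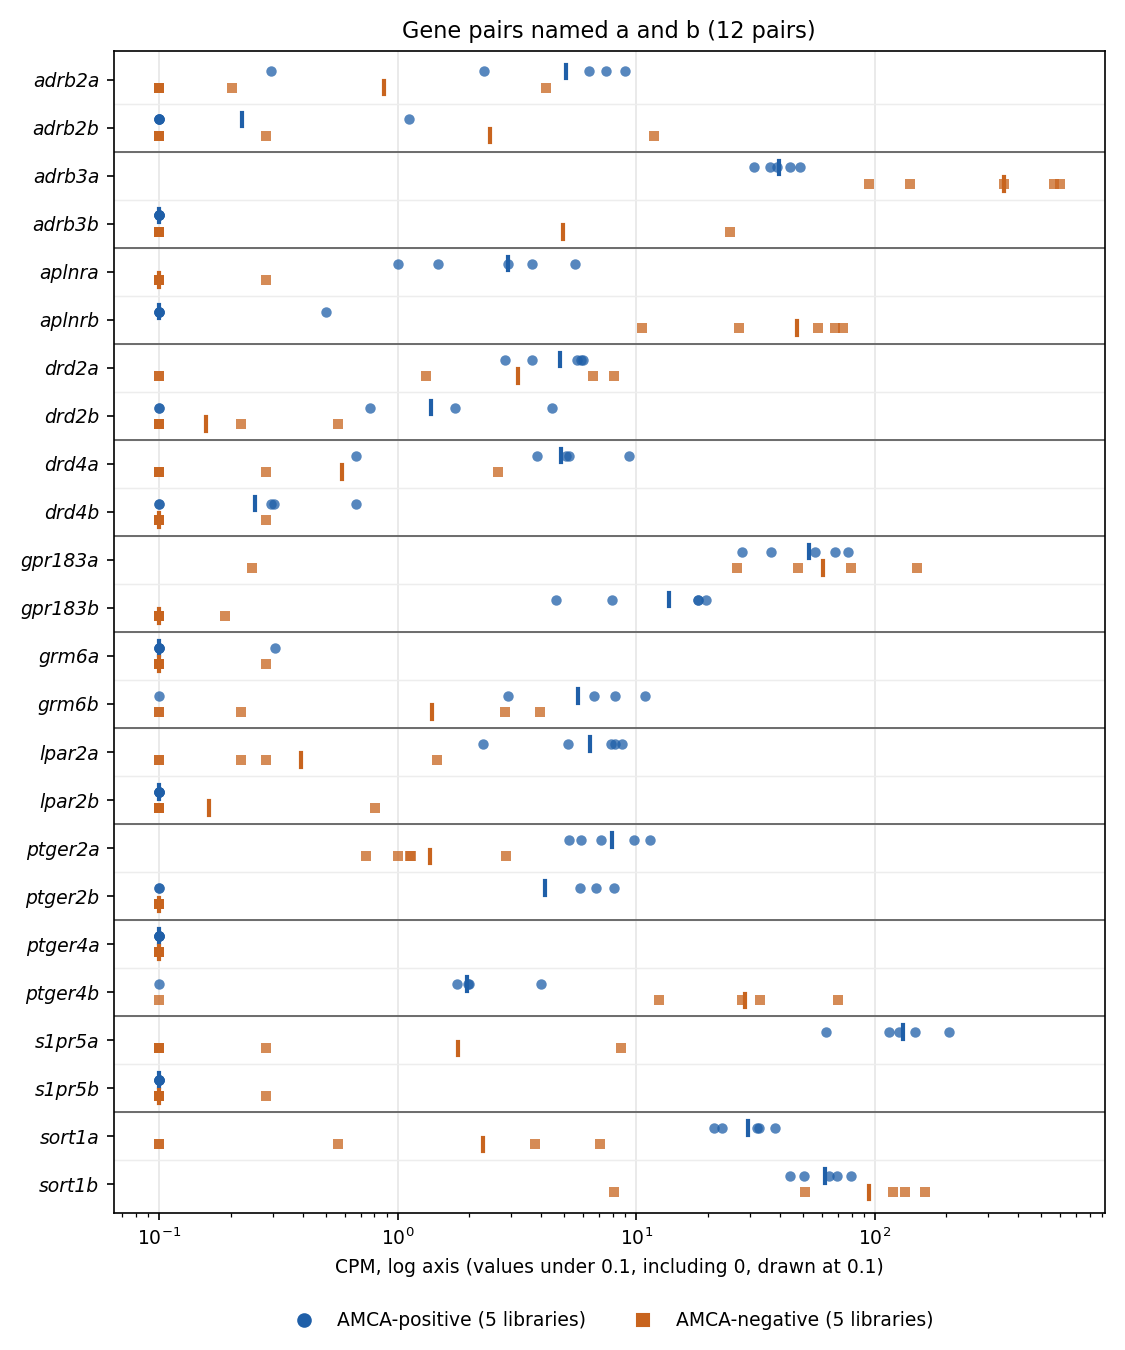
CPM in each library, on a log axis, for paralog pairs in which at least 1 member was tested. Blue circles are AMCA-positive and orange squares AMCA-negative libraries, bars are means and values below 0.1 CPM are drawn at 0.1; aplnra has its counts almost wholly in AMCA-positive and aplnrb in AMCA-negative libraries.

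The β-adrenergic receptor adrb3a, which binds adrenaline and noradrenaline and raises cyclic AMP, was the 1 amine receptor that edgeR called. It had 36.4, 31.2, 38.8, 44.1 and 48.6 CPM in AMCA-positive libraries and 566, 94.3, 597, 140.2 and 350.1 CPM in AMCA-negative ones. All AMCA-negative libraries were above all AMCA-positive ones. On the log2 scale the difference was -3.14 ± 0.53 (SE, with an adjusted p of 0.00210 in edgeR). Red cell genes moved the same way as adrb3a, aplnrb, cnr1 and si:ch211-191d15.2, with 12 of 13 tested members of the red cell list lower and 1 higher, and the part of red cells in these 4 differences was not tested.

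The dopamine receptor drd4a was not called by edgeR. It had 9.30, 0.667, 3.85, 5.07 and 5.24 CPM in AMCA-positive libraries and 0.282, 2.64, 0, 0 and 0 CPM in AMCA-negative ones. Replicate 2 was the lowest AMCA-positive and also the highest AMCA-negative library, so the groups overlapped. In log2 units the groups differed by 4.41 ± 1.56 (SE, with an adjusted p of 0.0742 in edgeR). It passed without AMCA-positive replicate 2 (5.71, edgeR adjusted p = 0.0293) or without AMCA-negative replicate 2 (5.94, edgeR adjusted p = 0.0120). The other 8 of 10 fits that left out 1 library did not call drd4a (edgeR adjusted p up to 0.1535). For adrb2a, a second β-adrenergic receptor, the log2 fold change was 3.55 ± 1.47 (SE, with an adjusted p of 0.128 in edgeR). Without AMCA-negative replicate 2 it was 5.67 (edgeR adjusted p = 0.0203). The other 9 such fits did not call adrb2a (edgeR adjusted p up to 0.235). With all 10 libraries the other tools called both higher, with an adjusted p for drd4a of 0.00476 in DESeq2 and 0.0182 in limma-voom, and for adrb2a of 0.0344 in DESeq2 and 0.0440 in limma-voom.

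Both tested adhesion receptors, which hold long extracellular domains and bind neighbouring cells or matrix, were higher. The very large adgrv1, needed for hearing in mammals, had 72.1, 79.8, 21.5, 62.1 and 47.4 CPM in AMCA-positive libraries and 1.41, 9.45, 11.03, 6.43 and 4.24 CPM in AMCA-negative ones. It was found in all 10 libraries, and the groups did not overlap. The log2 difference was 3.07 ± 0.77 (SE, with an adjusted p of 0.0154 in edgeR), and the call was lost without AMCA-positive replicate 4 (edgeR adjusted p = 0.0596) and with limma-voom (adjusted p = 0.0566). For adgrl4, a receptor of the endothelium, the AMCA-positive libraries had 2.74, 4.67, 5.62, 5.07 and 7.47 CPM and the AMCA-negative libraries held 1 count. The ratio for adgrl4 was 115, with a 95% counting interval of 20.3 to 4550.1 (edgeR adjusted p = 0.00402).

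The orphan receptor gpr182, also known from endothelium, had 8.38, 10.7, 14.8, 5.69 and 40.8 CPM in the AMCA-positive libraries, while the AMCA-negative libraries held no count. It was at least 119-fold higher, with 3 counts over the group as the floor (edgeR adjusted p = 0.00567), and at least 74.1-fold without AMCA-positive replicate 5. Endothelial genes were read beside these receptors. Of 10 tested, pecam1, erg, clec14a, flt4 and sox7 were higher and none was lower, with 515, 361, 322, 226 and 71 counts in AMCA-positive libraries, against 3, 1, 2, 2 and 1 in AMCA-negative ones. The list's sums overlapped, at 101–162 CPM in AMCA-positive libraries, against 0.735–224 CPM in AMCA-negative ones. The markers kdrl and cdh5, too thin to be tested, had 36 and 5 counts in AMCA-positive libraries, against 1 and 17 counts in AMCA-negative ones. The part of endothelium in the differences of s1pr1, adgrl4 and gpr182 was not tested.

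A pair of receptors of the primary cilium, an antenna-like organelle in which Hedgehog signals are read, was higher. Smoothened (smo), which starts the Hedgehog response inside the cell, had 6.55, 6.67, 7.85, 17.2 and 6.04 CPM in AMCA-positive libraries and 0.564, 0, 0, 0 and 0 CPM in AMCA-negative ones. Only AMCA-negative replicate 1 held any count, and the groups were well apart. The ratio for smo was 99.8, with a 95% counting interval of 27.4 to 828 (edgeR adjusted p = 0.00782). For gpr161, which holds the Hedgehog response down, the AMCA-positive libraries had 3.66, 18.3, 17.8, 2.61 and 15.42 CPM and the AMCA-negative libraries held 1 count. The ratio for gpr161 was 257, with a 95% counting interval of 45.8 to 10176 (edgeR adjusted p = 0.00353). Without the 1 AMCA-negative library that held their counts, the ratios become lower bounds of at least 483-fold for gpr84, 303-fold for agtrap, 78.2-fold for gpr183b, 68.3-fold for gpr161, 56.0-fold for smo and 32.1-fold for adgrl4. Mural cell and fibroblast genes summed to 1271–1869 CPM in AMCA-positive libraries, against 57.3–578 CPM in AMCA-negative ones, with 8 of 14 tested members higher and none lower. Epithelial genes summed to 6536–9554 CPM in AMCA-positive libraries, against 188–911 CPM in AMCA-negative ones, with 9 of 11 higher and none lower. The part of these cells was not tested.

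The lowest adjusted p among the 4 lower genes belonged to si:ch211-191d15.2, which the authors' table pairs with mouse Omg, a glycoprotein of the myelin sheath with no G-protein coupling. It had 215, 193, 134, 163 and 157 CPM in AMCA-positive libraries and 1202, 1129.9, 1807.5, 1152 and 1302 CPM in AMCA-negative ones. In log2 units the groups differed by -2.94 ± 0.23 (SE, with an adjusted p of 9.18e-06 in edgeR), with no overlap of the groups. Oligodendrocyte genes summed to 142–1184 CPM in AMCA-positive libraries, against 102–333 CPM in AMCA-negative ones, and neuron genes to 136–271 CPM in AMCA-positive libraries, against 132–254 CPM in AMCA-negative ones. None of the 3 tested oligodendrocyte genes and none of the 7 tested neuron genes was called by edgeR, nor had any an unadjusted p under 0.05, while DESeq2 called 1 oligodendrocyte gene and limma-voom none of either.

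Receptors through which hypothalamic and peripheral hormones act on the pituitary were mostly near the limit of detection. Of 113 receptors on a list of these, 48 are among the 208, 29 of those had at least 10 counts over the 10 libraries, 7 had none and 5 could be tested. Of the 5, edgeR called agtr2 higher and aplnrb lower, and did not call drd2a, drd4a and sstr5. DESeq2 called 3 of the 5, with drd4a added, and limma-voom 4, with drd4a and sstr5 added. The dopamine receptor drd2a, through which dopamine holds back prolactin in mammals, had 5.64, 3.67, 2.81, 5.99 and 5.88 CPM in AMCA-positive libraries and 0, 1.32, 8.09, 6.61 and 0 CPM in AMCA-negative ones. The groups overlapped, and the log2 fold change was 1.02 ± 1.37 (SE, with an adjusted p of 0.685 in edgeR). The somatostatin receptor sstr5 had 14.02, 23.3, 10.2, 21.4 and 36.4 CPM in AMCA-positive libraries and 6.20, 0, 0, 0 and 8.27 CPM in AMCA-negative ones. Although its groups did not overlap, sstr5 did not pass (log2 fold change 2.85 ± 1.61, SE, with an adjusted p in edgeR of 0.272), while limma-voom gave 5.09 (adjusted p = 0.00694).

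Several of the receptors below the count filter had counts on 1 side. Among the 157 untested receptors, 6 had every AMCA-positive library above every AMCA-negative one and none the reverse. Of all untested genes 6.61% and 0.246% did so. The receptors thus showed this layout less often than untested genes at large, and no receptor difference was read from the count. The thyrotropin receptor tshr, in which thyroid-stimulating hormone acts, had 6.55, 5.00, 0.888, 4.00 and 10.0 CPM in the AMCA-positive libraries, while the AMCA-negative libraries held no count. It was at least 39.1-fold higher with the same floor, and with no filter it passed (edgeR adjusted p = 0.0144). The relaxin-family receptor rxfp2b, chosen after its values were seen, had 14.02, 1.50, 17.02, 7.84 and 17.3 CPM in AMCA-positive libraries and 1 count in AMCA-negative ones. The ratio for rxfp2b was 263, with a 95% counting interval of 46.8 to 10397 (edgeR adjusted p with no filter = 0.00768), and at least 69.8-fold without the AMCA-negative library that held the count.

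The GABA-B receptor subunit gabbr2 had 31 counts spread over all 5 AMCA-positive libraries and none in AMCA-negative ones, a fold of at least 7.21, and of at least 4.68 without AMCA-positive replicate 1. With no filter gabbr2 did not pass (edgeR adjusted p = 0.0541). The prostaglandin receptor ptger2b, paralog of ptger2a, had 0, 0, 6.81, 5.84 and 8.11 CPM in the AMCA-positive libraries, while the AMCA-negative libraries held no count. The orphan receptor gpr22a, chosen after its values were seen, showed the same layout, with 0, 0, 4.44, 5.99 and 9.85 CPM in the AMCA-positive libraries, while the AMCA-negative libraries held no count. For both receptors the AMCA-positive libraries of plate 1 held none.

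Of the other pituitary hormone receptors, the vasoactive intestinal peptide receptor vipr2 had 102 counts in AMCA-positive libraries, against 18 in AMCA-negative ones, and the dopamine receptor drd2b had 45 in AMCA-positive libraries, against 3 in AMCA-negative ones. The melatonin receptor mtnr1aa had 69 counts in 2 AMCA-positive libraries and none in AMCA-negative ones. The thyrotropin-releasing hormone receptor trhr2 had 21 counts, all in 1 AMCA-positive library. The oxytocin receptor oxtr had 13 counts and the kisspeptin receptor kiss1rb 20 counts in AMCA-positive libraries, with none in AMCA-negative ones. The tachykinin receptor tacr1a had 15 counts in AMCA-positive libraries, against 90 in AMCA-negative ones. The follicle-stimulating hormone receptor fshr had 1 count in AMCA-positive libraries, against 9 in AMCA-negative ones. These receptors did not pass the count filter, and no difference was read from them.

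**Figure D5:**
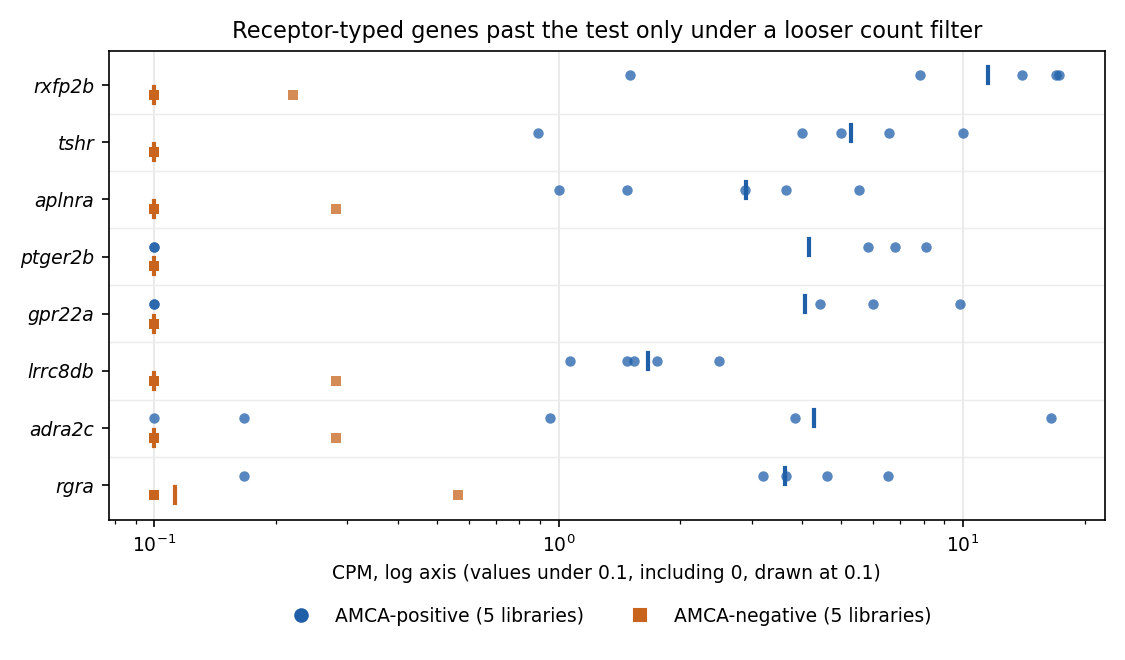
CPM in each library, on a log axis, for receptors that passed the edgeR test only with no filter or a looser one. Blue circles are AMCA-positive and orange squares AMCA-negative libraries, and values below 0.1 CPM are drawn at 0.1; tshr has no count in any AMCA-negative library, and ptger2b and gpr22a are at 0 in the 2 AMCA-positive libraries of plate 1.

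The metabotropic glutamate receptors grm4 and grm6b, the class B receptor calcrla and the melanopsin opn4.1 were tested and not called. The log2 fold changes were 0.88 ± 1.41 for grm4, 2.103 ± 1.61 for grm6b, 2.46 ± 1.598 for calcrla, which pairs with RAMP proteins to bind calcitonin-related peptides, and -0.81 ± 0.74 for opn4.1 (SE, with adjusted p in edgeR of 0.746, 0.438, 0.350 and 0.526). For gpr34b, whose mammalian counterpart binds lysophosphatidylserine on microglia, the AMCA-positive libraries had 0, 0, 1.92, 0.154 and 5.88 CPM and the AMCA-negative libraries had 0, 61.8, 32.1, 31.2 and 3.83 CPM. The groups overlapped, and the log2 fold change was -4.88 ± 2.15 (SE, with an adjusted p of 0.152 in edgeR). The leukocyte receptor p2ry10 had a log2 fold change of -1.28 ± 1.25 (SE, with an adjusted p of 0.556 in edgeR).

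Genes that act downstream of the receptors were called at shares near those of all genes. Of 148 listed genes for G-protein subunits, regulators, cyclases, phosphodiesterases and cyclic AMP effectors, 97 were in the table and 58 were tested, of which edgeR called 8 higher (13.8%, beside 13.1% of all genes) and 5 lower (8.62%, beside 7.06%). Their median log2 fold change was 0.86, beside 0.51 over all genes tested. The inhibitory subunit gnai2a averaged 609 CPM in AMCA-positive cells, against 129 CPM in AMCA-negative ones (2.34 ± 0.35, SE, with an adjusted p in edgeR of 0.00103), and the G-protein subunit gna12a averaged 52.5 CPM in AMCA-positive cells, against 0.617 CPM in AMCA-negative ones (6.36 ± 1.11, SE, with an adjusted p in edgeR of 0.00243). The regulators rgs4 and rgs5a, which speed the end of Gi and Gq signals, were higher by log2 fold changes of 5.96 ± 1.14 and 4.54 ± 0.66 (SE, with adjusted p in edgeR of 0.00399 and 0.000937); rgs5a is also on the mural cell list. The other 4 higher genes were gnb1a, gng13b, arr3a and arr3b, and the cone arrestins arr3a and arr3b are photoreceptor genes.

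The 5 lower genes were a further regulator and parts of the cyclic AMP pathway. The regulatory subunit of protein kinase A prkar2aa averaged 68.2 CPM in AMCA-positive cells, against 599.6 CPM in AMCA-negative ones (-3.11 ± 0.34, SE, with an adjusted p in edgeR of 0.000153), and prkar1ab averaged 28.2 CPM in AMCA-positive cells, against 107 CPM in AMCA-negative ones (-1.84 ± 0.53, SE, with an adjusted p in edgeR of 0.0326). The phosphodiesterases pde7a and pde8a, which break down cyclic AMP, were lower by log2 fold changes of -2.71 ± 0.38 and -4.08 ± 1.21 (SE, with adjusted p in edgeR of 0.000643 and 0.0345). The regulator rgs13 had -1.91 ± 0.43 (SE, with an adjusted p of 0.00843 in edgeR).

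The libraries lie on 2 plates, with 2 AMCA-positive and 2 AMCA-negative libraries on plate 1 and 3 of each on plate 2. All 19 called receptors kept their direction when fitted within each plate. Their groups did not overlap over the 10 libraries, so this was largely fixed in advance and is no separate support. With plate 2 alone 14 of the 19 passed, where 14.8% of all genes were higher and 5.15% lower. With plate 1 alone 1 did, cmklr1, where 0.309% of all genes were higher and 0.363% lower. The 5 that missed on plate 2 were s1pr5a, adgrv1, ptger2a, lpar2a and cnr1. For cnr1 the log2 fold change was -2.15 on plate 1 and -0.81 on plate 2 (edgeR adjusted p of 0.116 and 0.155). In the authors' deposited table, 28 of 94 receptors with an adjusted p-value were higher and 8 lower at 0.05, beside 22.3% and 8.31% of all genes with one.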

How the data were processed

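RNA was measured in 5 AMCA-positive and 5 AMCA-negative libraries, grouped by the dye label of each sample. The authors deposited raw counts per gene, their signal (counts divided by 1 size factor per library), and a comparison with log2 fold changes, score columns and p-values. The score and signal columns were used only to check the table. The deposited adjusted p-values, with the signs of the deposited log2 fold changes, were used to count calls. Tools named in the submitters' processing notes, in no order, are HTSeq, cutadapt, DESeq2 and TopHat2 2.0.13, with the build danRer10. The annotation, the role of each tool and whether strand was used in counting are not stated in those sources. Gene names and types are the authors'; 198 of the 208 receptor names are current in RefSeq and 10 are synonyms.

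The test of the deposited counts was that of edgeR 4.0.16 under R 4.3.3 (filterByExpr on group, TMM scaling, robust two-sided quasi-likelihood test, plate plus group, Benjamini-Hochberg over 9094 genes, threshold 0.05). The script passed a loose check on simulated counts, which asked only for few false calls and for recovery of part of the largest planted changes. CPM uses TMM-adjusted library sizes and has no length correction. SE is the error implied by the test. Ratios to groups with 1 to 3 counts carry exact 95% intervals. DESeq2 1.42.0 and limma 3.58.1 (voom with quality weights) were alternatives, beside other filters, scalings, single plates and leaving out each library. Total counts per library were 4250948 to 6068781, so a receptor under about 1 CPM rests on a few reads. No 2 libraries of the same group matched within sampling noise.

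By rule, the genes named were up to 15 called receptors in each direction at 5 CPM or more in the group where they were higher. The rule also took the 2 with the smallest p in each ligand class and paralog pairs. Members of a list of pituitary hormone receptors with at least 10 counts were taken too. Genes outside the rule are stated as such. Some listed receptors with few counts and some members of pairs meet the rule but have no values in the text. The receptors and all gene lists were chosen with earlier results of these data known. No set test was run. The values of 1 gene are not reported here.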

Additional observations from a re-analysis of the deposited data

Results flagged for a closer look

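In 7 receptors 1 library stood far from the other 4 of its group on the log2(CPM + 1) scale, by Dixon's criterion with a critical value of 0.71. Chance alone marks about 1 in 20 groups, or 3.3 of the 66 groups looked at. In the AMCA-positive group, replicate 2 had 555 CPM of cmklr1 against 303 CPM in the nearest library, and replicate 4 had 17.2 CPM of smo against 7.85 CPM. In the AMCA-negative group, replicate 2 stood above the others for ptger2a (2.86 CPM, nearest 1.13), drd4a (2.64 CPM, nearest 0.282) and adrb2a (4.18 CPM, nearest 0.202). Replicate 3 did so for lpar2a (1.47 CPM, nearest 0.282) and replicate 5 for s1pr5a (8.68 CPM, nearest 0.282).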

How the results depend on the processing

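The count of 15 higher receptors was 12–21 when 1 library was left out, and that of 4 lower ones 4–6. Without AMCA-positive replicate 4, 12 of 56 were higher (21.4%, beside 11.1% of all genes). Without AMCA-negative replicate 2, 21 of 58 were higher (36.2%, beside 17.1%) and 6 lower (10.3%, beside 7.26%). Against the background of each setting, 23 of 51 were higher with limma-voom (45.1%, beside 26.9% of all genes). Where 10 CPM in 5 libraries was required, 7 of 26 tested were higher (26.9%, beside 10.4%). On plate 1 alone 1 of 53 was higher (1.89%, beside 0.309%). The lower count was 8 with DESeq2's Wald test (9.81%) and 0 on plate 1 alone (0.363%), where edgeR gives 2 libraries against 2; the cause was not tested beyond the fewer receptors and libraries. With no filter 20 of 180 were higher (11.1%, not above the 11.5% of all genes) and 4 lower, with a filter by plate and group 21 of 73 (28.8%, beside 16.2%), and with DESeq2's Wald test 19 of 51 (37.3%, beside 22.8%). The 51 include s1pr5a and gpr132b, to which DESeq2 gave no p-value. Of the 58 tested G-protein signalling genes edgeR called 13 in either direction, where it called 20.1% of all genes. DESeq2 called 25 of them, where 22.8% of all genes were higher and 9.81% lower. The limma-voom fit called 21, where 26.9% of all genes were higher and 7.11% lower. Without AMCA-negative replicates 1 and 3, which have the lowest scaling factors, 21 of 70 receptors were higher (30%) and 4 lower (5.71%). Of all genes 15.9% were higher and 7.6% lower in that fit. The filter by plate and group, the fit without those replicates and the count without the 9 products that lack 7 membrane passes (14 higher, 3 lower) were chosen after seeing the data. The log2 fold change of calcrla was -0.52 on plate 1 alone; that of gpr183a was 0.073 with DESeq2 size factors, 0.073 with the DESeq2 Wald test, 0.79 with limma-voom, 0.21 on plate 1 alone and -0.45 to 0.44 with 1 library left out; that of sort1b was -0.92 to 0.012 with 1 library left out; the cause was not tested. Over the named receptors, 605 values kept direction and side of the threshold, 44 lost the call, 15 gained it and 8 changed sign. The median log2 fold change of all genes moved by 0.15 with DESeq2 size factors, which change only the scaling, and by 0.16 with the DESeq2 Wald test and 0.98 with limma-voom, which change the model too. No paired analysis was possible because replicate numbers were given in accession order and the labels do not say which libraries share a pool. Receptors below a few reads per library could not be compared at this depth.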

Other observations

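Some receptors had nearly all their counts in a single library. Of 92 receptors with at least 30 counts over the 10 libraries, 8 (8.696%) had at least 90% of them in 1 library, beside 170 of 11682 genes (1.46%) in the whole table. These shares were not matched for count level, and the 8 receptors had only 30 to 234 counts in all. On the AMCA-positive side, all 92 counts of the serotonin receptor htr1ab were in replicate 3 and 51 of 53 counts of the cone opsin opn1lw1 in replicate 2. The other 6 were on the AMCA-negative side. The adenosine receptors adora2aa and adora2ab had 225 of 234 and 39 of 42 counts in replicate 4. The β-adrenergic receptor adrb3b and the κ-opioid receptor oprk1 had all of their 101 and 30 counts in replicate 3. The glutamate receptor grm3 and the δ-opioid receptor oprd1a had 118 of 119 and 140 of 144 counts in replicate 5. The choice of 30 counts and 90% was made after the data were seen.

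The cannabinoid-related receptor gpr55a, named after its values were seen, had 22 counts in AMCA-positive libraries, against 406 in AMCA-negative ones, and was not tested under the count filter. AMCA-negative replicate 2 held no count, so the groups overlapped, and with no filter gpr55a did not pass (edgeR adjusted p = 0.109).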
